A study of Mus musculus with 12 samples.

Results

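Mbp, Mog, Mag, Opalin, Aspa, Qdpr, Mobp, Cnp and Mal, genes of myelin and of the oligodendrocytes that make it, were followed across cerebrum and heart of mice given phosphatidylserine or its vehicle. A gene counted as measured where a transcript cluster of the array carried it as its single gene symbol in the platform annotation. This held for 8 of the 9 genes, with 1 transcript cluster each, out of 18820 genes measured in the same way. Mbp, which encodes myelin basic protein, was on a transcript cluster that carries several symbols, and no value is given for it here.

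The mice carry a humanized knock-in of IKBKAP and model familial dysautonomia (FD), in which mis-splicing of that gene impairs the sensory and autonomic nervous system. Every array has the strain label C57BL/6J and the genotype label IKBKAP FDloxP/+. By these labels the groups share strain and allele and differ by tissue and by what was given. The treatment groups also differed in sex-linked transcripts, as described below. From 4 months of age the mice received by gavage either phosphatidylserine (PS), a membrane phospholipid, at 200 mg/kg in 100 µl, or medium-chain triglycerides (MCT), the control, every other day for 3 months. There were 12 arrays, 3 for each of the 4 groups, labelled as biological replicates, and so small a number limits precision. The animals are described in conflicting ways: the series design speaks of 6 FD mice, the growth protocol of 3 FD and 3 wild-type mice. The source names also give the dose per day and the protocols give it per kg.

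Oligodendrocytes are the glial cells that wrap axons of the central nervous system in myelin, a stack of lipid-rich membrane that speeds conduction. Mbp and Mobp belong to the compact stack, Mag lies at the inner face toward the axon, and Mog lies on the outermost surface. Opalin is a sialylated membrane protein of mature oligodendrocytes, Mal is a proteolipid that takes part in sorting membrane proteins, and Cnp is a cyclic nucleotide phosphodiesterase of the non-compacted channels of the sheath. Aspa, aspartoacylase, splits N-acetylaspartate into aspartate and acetate, which can enter lipid synthesis, and Qdpr, dihydropteridine reductase, regenerates tetrahydrobiopterin, the cofactor of aromatic amino acid hydroxylases.

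Promoter sequence was available in RefSeq for all 8 measured genes, at 10 start sites because Mag has 3, on the build GRCm38.p6. The 250 bases before the start site are printed 5′ to 3′ on the gene's strand for the 4 genes whose cerebrum values fell under PS and for Mobp, whose values did not pass the test. Capitals mark matches to motifs of factors that act in oligodendrocytes: ACAAAG, a core bound by SOX proteins, and CTGGTAC, a form bound by the myelin regulatory factor Myrf. TATAAA, the TATA box, is marked too, and every motif was read on both strands, so that ACAAAG also appears as CTTTGT and TATAAA as TTTATA. Opalin lies at chr19:41077114-41077363, minus strand. Mog is at chr17:37023399-37023648, minus strand. The Aspa window is chr11:73324638-73324887, minus strand. For Qdpr it is chr5:45450230-45450479, minus strand. Mobp is at chr9:120149492-120149741, plus strand.
Opalin: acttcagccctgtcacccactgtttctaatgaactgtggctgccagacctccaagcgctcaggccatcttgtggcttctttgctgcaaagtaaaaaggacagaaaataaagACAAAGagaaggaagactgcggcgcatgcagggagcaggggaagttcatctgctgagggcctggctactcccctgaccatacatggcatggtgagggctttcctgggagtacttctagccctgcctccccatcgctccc
Mog: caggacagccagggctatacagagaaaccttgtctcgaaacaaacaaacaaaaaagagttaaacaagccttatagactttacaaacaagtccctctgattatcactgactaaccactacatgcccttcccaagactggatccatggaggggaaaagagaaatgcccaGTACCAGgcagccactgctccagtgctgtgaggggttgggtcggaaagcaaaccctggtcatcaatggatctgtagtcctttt
Aspa: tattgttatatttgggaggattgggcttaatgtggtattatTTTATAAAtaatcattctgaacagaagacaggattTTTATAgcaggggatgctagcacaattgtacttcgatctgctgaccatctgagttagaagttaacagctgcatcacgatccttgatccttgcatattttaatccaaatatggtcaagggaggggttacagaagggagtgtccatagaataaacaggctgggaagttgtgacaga
Qdpr: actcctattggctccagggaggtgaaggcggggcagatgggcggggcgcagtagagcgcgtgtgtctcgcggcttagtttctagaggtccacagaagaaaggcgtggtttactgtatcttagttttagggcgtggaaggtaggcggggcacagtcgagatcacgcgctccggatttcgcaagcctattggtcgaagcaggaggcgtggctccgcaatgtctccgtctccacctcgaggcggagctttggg
Mobp: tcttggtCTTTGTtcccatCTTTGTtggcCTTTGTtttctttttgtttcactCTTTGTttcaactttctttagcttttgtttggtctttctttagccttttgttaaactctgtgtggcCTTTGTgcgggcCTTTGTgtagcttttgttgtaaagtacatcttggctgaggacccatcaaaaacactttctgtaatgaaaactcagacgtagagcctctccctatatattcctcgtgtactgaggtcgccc

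Opalin held 1 SOX core, 139 to 134 bases before its start, and Mobp held 6, between 243 and 115 bases before its start. Mog held 1 match to the Myrf form CTGGTAC, 83 to 77 bases before its start, and Aspa held 3 TATA matches, of which a pair overlaps. Qdpr held none of the motifs and was the richest in CpG of the 5, with 21 CpG dinucleotides and a GC content of 59.6%. The median over the 32851 promoters in the table was 6 CpG and 52.4% GC. The SOX core was present in 5 of the 10 start sites of these genes, those of Cnp, Mag (2 of 3), Mobp and Opalin, against 16.5% of all promoters. A further Myrf form, CTGGCAC, was present in 3 of the 10, those of Cnp and Mag, against 4.19%, and CTGGTAC in 1 of the 10 against 1.83%. The windows of 2 Mag start sites overlap and hold the same SOX and Myrf matches, so by gene the SOX core was in 4 of 8 and CTGGCAC in 2 of 8. TATAAA was present in 1 of the 10 against 12.4%. These matches describe letters in the windows and are no evidence that a factor binds there.

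Levels below are log2 signal intensities, with medians per array from 4.89 to 5. Correlations across transcripts were 0.979 to 0.995 within groups and 0.973 to 0.992 between treatments in the same tissue. Heart MCT 3 correlated less with heart MCT 1 and MCT 2 (0.979 and 0.983) than with heart PS 1, PS 2 and PS 3 (0.99, 0.984 and 0.989). The tissues had the markers of their labels: in MCT mice all 8 measured neuronal markers were lower in heart, and all 7 measured cardiomyocyte markers were higher there. Sex-linked transcripts did not match between the treatment groups. Xist, the RNA of the inactive X chromosome, lay between 8.92 and 9.86 on all heart PS arrays and on cerebrum PS 1 and PS 3, and between 3.32 and 4.03 on the other 7 arrays, where the Y-linked Eif2s3y lay between 7.25 and 8.67. In heart this female pattern and PS treatment cannot be told apart, and in cerebrum only PS 2 had the male pattern that all 6 MCT arrays had. Cerebrum PS 2 and heart PS 2 differed in this pattern, so arrays of equal number need not come from the same mouse.

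In cerebrum, all 8 measured genes had lower means in PS than in MCT mice, by 0.36 to 1.35 on the log2 scale. Of the 8, 4 fell at an adjusted p under 0.05 in limma, which were Opalin, Aspa, Mog and Qdpr. Over all 12733 transcripts tested, 5.76% passed this threshold and 3.93% passed it as lower in PS mice. The lower ones were 68.3% of all calls, 58.1% after quantile normalization and 82.4% with arrays centred on their medians, and the 8 genes were below 0 under each. The median difference of the 8 genes was −0.59, and that of all transcripts tested was −0.03. Cerebrum is a mixture of cells, and in bulk RNA fewer oligodendrocytes and less RNA per oligodendrocyte cannot be told apart.

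**Figure D1:**
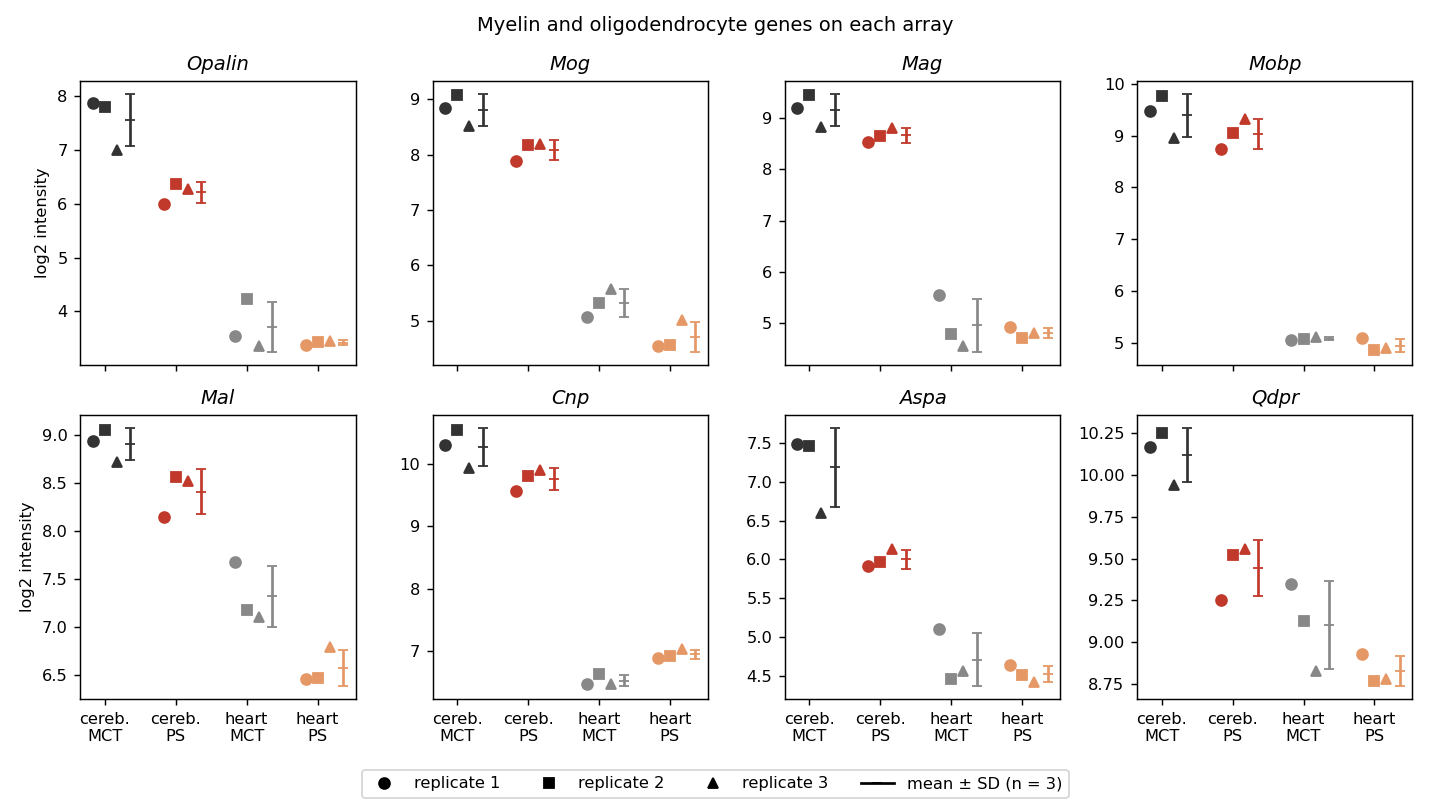
Log2 intensity of the 8 measured genes on each of the 12 arrays (y axis), by tissue and treatment (x axis; cereb., cerebrum). Symbols are replicates 1 to 3, bars are the mean ± SD of 3 arrays, and each panel has its own scale. In cerebrum the PS arrays lie below all MCT arrays for every gene but Mobp, and both heart groups lie lower, though heart MCT overlaps cerebrum PS for Qdpr.

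Opalin, the marker of mature cells, was 7.88, 7.80 and 7.01 on MCT arrays 1, 2 and 3 and 5.99, 6.37 and 6.28 on PS arrays 1, 2 and 3. The groups were separated by a gap of 0.64, and MCT 3 lay closest to the PS arrays. The MCT mean of 7.56 ± 0.48 and the PS mean of 6.21 ± 0.20 (SD, n = 3 arrays each) differed by −1.35 ± 0.229 (SE; limma, adjusted p = 0.0337), a 2.55-fold fall in intensity. Only 0.856% of the transcripts tested had a difference below −1.

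Aspa, the acetate-releasing enzyme, was 7.49, 7.47 and 6.60 under MCT and 5.91, 5.96 and 6.14 under PS, in the same order of arrays. Here too MCT 3 was the lowest control, 0.46 above the highest PS array, and the SD of the PS arrays was only 0.12. The difference was −1.18 ± 0.230 (SE; limma, adjusted p = 0.0382), or 2.27-fold. Qdpr, the dihydropteridine reductase, read 10.17, 10.25 and 9.94 under MCT and 9.25, 9.52 and 9.56 under PS. Every PS array was at least 0.38 below every MCT array. Its means were 10.12 ± 0.16 and 9.44 ± 0.17 (SD, n = 3 arrays each), and it fell by 0.68 ± 0.120 on the log2 scale (SE; limma, adjusted p = 0.0349).

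Among the proteins of the sheath surface, Mog was 8.84, 9.08 and 8.51 on the MCT arrays and 7.88, 8.18 and 8.19 on the PS arrays. Its groups lay 0.32 apart, and its difference was −0.73 ± 0.157 (SE; limma, adjusted p = 0.0444). Mag, on the inner face, was 9.19, 9.45 and 8.83 against 8.53, 8.64 and 8.81. Its groups did not overlap, but MCT 3 and PS 3 were only 0.02 apart. The difference of −0.50 ± 0.159 missed the threshold (SE; limma, adjusted p = 0.0953), with a 95% interval of −0.87 to −0.125.

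Mal, the sorting proteolipid, was 8.93, 9.05 and 8.72 under MCT and 8.14, 8.56 and 8.52 under PS, with a gap of 0.16 between the groups. Its difference was −0.49 ± 0.138 (SE; limma, adjusted p = 0.0731). Cnp, the phosphodiesterase, was 10.31, 10.55 and 9.94 against 9.57, 9.80 and 9.91. Its lowest control, MCT 3, and highest PS array, PS 3, were 0.03 apart, and the difference was −0.51 ± 0.164 (SE; limma, adjusted p = 0.0968). Mobp, of the compact stack, was 9.47, 9.76 and 8.95 against 8.74, 9.05 and 9.32, and it was the gene whose groups overlapped, since PS 2 and PS 3 lay above MCT 3. Its difference was −0.36 ± 0.222 (SE; limma, adjusted p = 0.324), with a 95% interval of −0.88 to 0.16 that holds both no difference and a difference of the size of Mog's.

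The arrays took nearly the same order for every gene. The groups did not overlap for 7 of the 8 genes, each lower under PS, against 20.4% of all transcripts tested. MCT 3 was the lowest control and PS 1 the lowest PS array in 8 of 8 genes. The share of all transcripts with these lowest arrays was not counted, so this is not shown to be particular to the members. MCT 3 was also below the MCT mean for 7 of 7 astrocyte markers, but for only 1 of 8 neuronal markers. MCT 2 was the highest control in 6 of the 8, the exceptions being Opalin and Aspa, and PS 3 the highest PS array in 6, the exceptions being Opalin and Mal. Taken as deviations from each gene's MCT mean, the median over the 8 genes was 0.05, 0.28 and −0.33 on MCT 1 to 3 and −0.815, −0.56 and −0.47 on PS 1 to 3. The PS 2 array, with the same male pattern as the controls, was below all 3 of them for the same 7 genes, which follows from their non-overlap. For Mobp, PS 2 at 9.05 was above MCT 3. The part of the sex-linked pattern in these values was not tested.

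**Figure D2:**
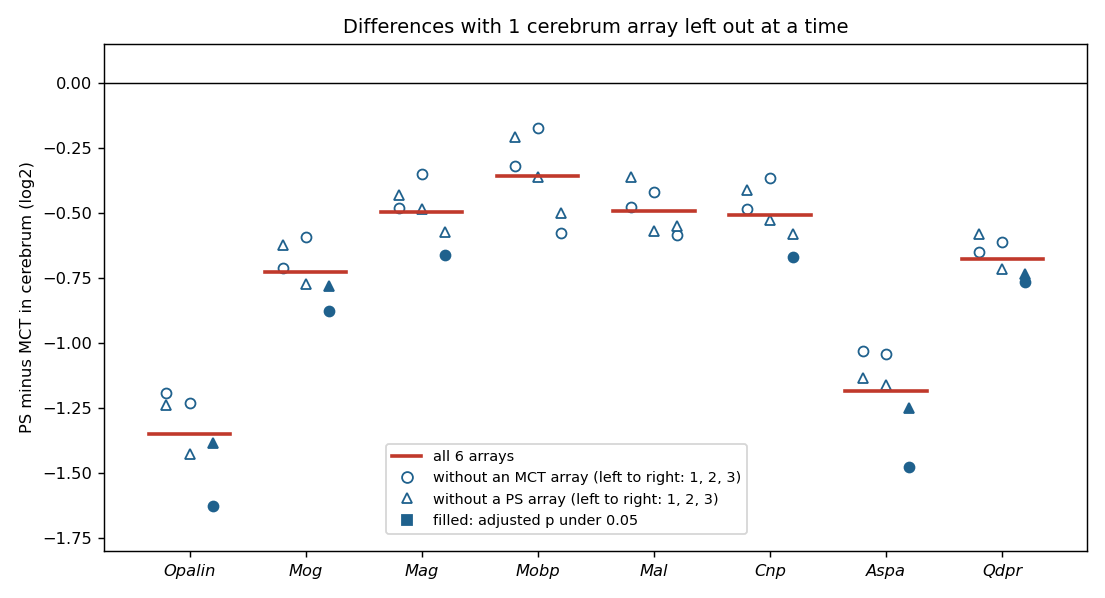
Difference between PS and MCT mice in cerebrum (log2, y axis) for each gene, with all 6 arrays (lines) and with 1 array left out (symbols; filled, adjusted p under 0.05 in limma). All differences lie below 0, and filled symbols occur only without MCT 3 or PS 3.

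The calls rested on single arrays. No gene passed without MCT 1, MCT 2, PS 1 or PS 2. There the adjusted p (limma) of the 4 called genes was 0.158 to 0.182, 0.132 to 0.148, 0.0992 to 0.122 and 0.0565 to 0.0768. The directions stayed below 0, but for the 7 genes without overlap leaving out an array could not change them. At an adjusted p under 0.10 with all arrays, 7 of the 8 passed, all lower, against 10.7% of transcripts. Without MCT 3, 6 of the 8 passed at 0.05, the added pair being Mag and Cnp, and without PS 3 the count was 4. Of all transcripts tested, 0 passed when MCT 1 was left out, 2 when MCT 2 was and 615 when MCT 3 was, and for the PS arrays these counts were 0, 145 and 1557. At an unadjusted p under 0.05 limma gave 2303 transcripts without MCT 1 and 2945 without PS 1, and 3692 with all arrays. When transcripts with several gene symbols or none were tested as well, none of the 8 passed, the 4 called genes having adjusted p of 0.0508 to 0.0625, and with no filter on low values Opalin and Qdpr passed.

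The genes had similar profiles over the 6 cerebrum arrays, which hold both treatment groups, so the correlations include the difference between the groups. Each gene's correlation with the mean of the other members, a description over arrays that they all share, was 0.992 for Mog, 0.982 for Cnp and 0.957 to 0.974 for Qdpr, Mag, Opalin, Aspa and Mal. It was 0.845 for Mobp. How many of all transcripts correlate as highly was not counted. Outside the 8, the transcript closest to their mean profile was Psma3, a proteasome subunit (r = 0.997), followed by Hadhb, a subunit of the mitochondrial trifunctional protein, Ciao2a and Klhl5. The fifth was Ermn, ermin, a cytoskeletal protein of oligodendrocytes (r = 0.995), which was 8.60, 8.81 and 8.23 under MCT and 7.60, 7.90 and 8.03 under PS. Its difference was −0.70 (limma, adjusted p = 0.0536). Rpl7, Elovl7, Mettl9, Slain1 and Atp6v1f completed the 10 closest, so the profile was not particular to the myelin genes. Among the 10, Elovl7, a fatty acid elongase, had the lowest adjusted p, at 0.0532 (limma), with a difference of −0.72.

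Other proteins of the sheath and the oligodendrocyte membrane were mostly lower as well: of 16 genes listed, 14 were measured, 11 had differences below 0, 2 fell and 1 rose, with a median of −0.49. Over all transcripts tested, 54.7% were below 0 and 3.93% fell. Tspan2, a tetraspanin of myelin, was 8.97, 9.16 and 8.75 under MCT and 8.29, 8.47 and 8.34 under PS and fell by 0.59 (limma, adjusted p = 0.0383). Gpr37, a receptor of maturing oligodendrocytes, was 8.52, 8.65 and 8.24 against 7.83, 7.89 and 7.96 and fell by 0.58 (adjusted p = 0.0395). Both were lower on every PS array than on any control. Nfasc, neurofascin, the adhesion protein of nodes and paranodes with glial and neuronal forms, was 8.25, 8.27 and 8.42 against 8.76, 8.66 and 8.72 and rose by 0.40 (adjusted p = 0.0419), where 1.83% of all transcripts tested rose.

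Mature oligodendrocyte genes other than sheath proteins went the same way in 10 of 13 measured, with 2 that fell and a median of −0.45. The shares over all transcripts tested were 54.7% below 0 and 3.93% that fell. Septin4, a filament protein of the myelin sheath, was 8.93, 9.06 and 8.70 under MCT and 8.23, 8.29 and 8.16 under PS. It fell by 0.67 ± 0.106 (SE; limma, adjusted p = 0.0288). Car2, a carbonic anhydrase of oligodendrocytes, was 10.46, 10.48 and 10.13 against 9.63, 9.71 and 9.84 and fell by 0.63 ± 0.116 (adjusted p = 0.0354).

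Of the myelin lipid enzymes, 7 of 7 measured were below 0, none passed, and the median was −0.19. Ugt8a, which makes galactosylceramide, had −0.57 (limma, adjusted p = 0.0547) and Fa2h, which hydroxylates its fatty acids, −0.54 (0.0878). All 9 measured transcription factors of the lineage were also below 0 with none past the threshold and a median of −0.15. Sox10 was 6.78, 7.05 and 6.55 under MCT and 6.34, 6.41 and 6.60 under PS, so its groups overlapped (difference −0.34, limma, adjusted p = 0.153), and St18 had −0.56 (adjusted p = 0.108). By comparison 54.7% of all transcripts tested were below 0.

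Earlier stages of the lineage showed no common direction. Of 7 tested precursor genes 3 were above 0 and 4 below, the median was −0.08, and none passed. Pdgfra, the growth factor receptor of precursors, had −0.23 (limma, adjusted p = 0.124) and Cspg4, their NG proteoglycan, 0.26 (adjusted p = 0.154). The 5 genes of newly formed oligodendrocytes had a median of −0.11 and none passed, with Enpp6 at −0.52 (adjusted p = 0.0968) and Bmp4 at 0.49 (adjusted p = 0.124).

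For N-acetylaspartate metabolism, the pathway of Aspa, 3 of 5 other genes were below 0, the median was −0.07 and none passed. Folh1, which cleaves N-acetylaspartylglutamate, was 7.05, 7.30 and 6.62 against 6.16, 5.95 and 6.43, a difference of −0.81 that missed the threshold (limma, adjusted p = 0.0518), and Rimkla, which makes that dipeptide, had −0.53 (adjusted p = 0.0666). For tetrahydrobiopterin, the cofactor that Qdpr recycles, 3 of 6 other genes were tested, all 3 were below 0 with a median of −0.38, and Pcbd1 fell. Among all transcripts tested 54.7% were below 0 and 3.93% fell. Pcbd1, the dehydratase that acts just before Qdpr in recycling the cofactor, was 8.36, 8.95 and 7.72 under MCT and 6.75, 6.48 and 7.36 under PS. It fell by 1.48 ± 0.328 (SE; limma, adjusted p = 0.0463), with groups that did not overlap.

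The axon side of the node and paranode had 4 of 7 genes above 0 and none past the threshold, with a median of 0.16. The paranodal and juxtaparanodal proteins Cntnap1 and Cntnap2 had −0.27 and −0.35 (limma, adjusted p = 0.0838 and 0.065). Schwann cell genes, which mark peripheral myelin, had 5 tested, none past the threshold and a median of −0.01, with Egr2 at 0.76 (adjusted p = 0.198) and Drp2 at 0.23 (adjusted p = 0.244). None of the 6 genes called in these lists passed without MCT 1, MCT 2, PS 1 or PS 2, where their adjusted p was 0.158 to 0.186, 0.116 to 0.152, 0.0957 to 0.129 and 0.0539 to 0.0916.

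**Figure D3:**
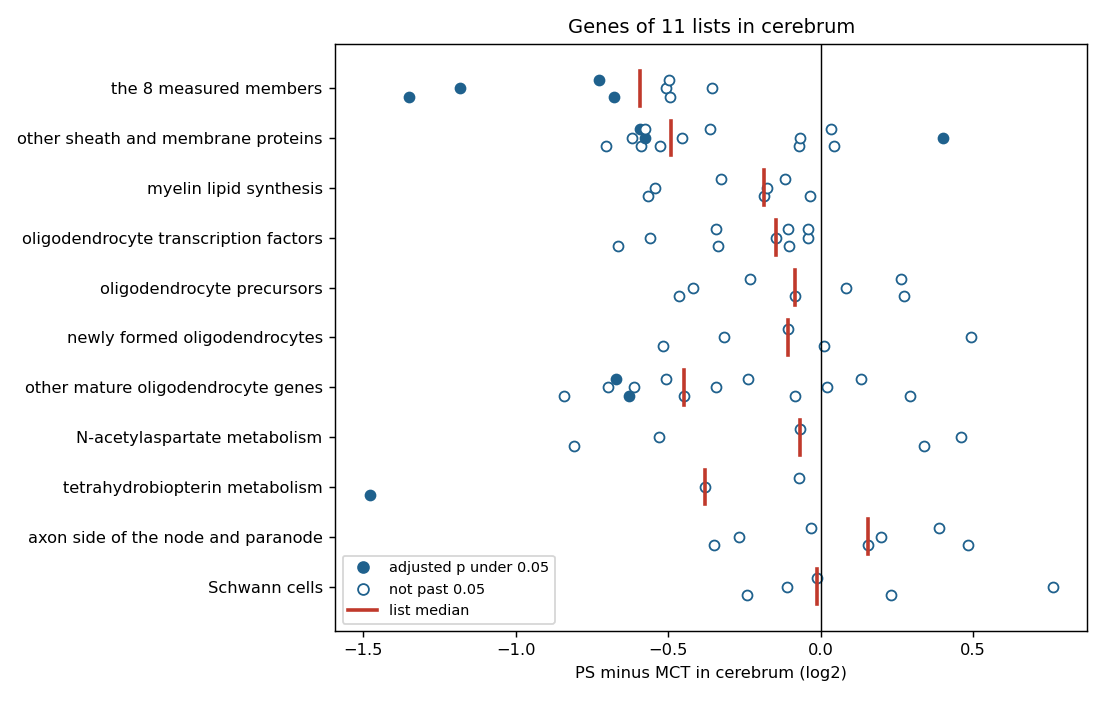
Difference between PS and MCT mice in cerebrum (log2, x axis) of each tested gene of the 8 members and of 10 other lists (y axis). Filled points passed an adjusted p of 0.05 in limma and red bars are list medians. The members, the other sheath proteins and the other mature genes have the lowest medians, −0.59, −0.49 and −0.45, while precursor, newly formed and Schwann cell lists lie near 0.

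Markers of other cells and regions also differed between the cerebrum groups. Genes of striatal medium spiny neurons, the main neurons of that subcortical region, were below 0 in 10 of 10 measured, with a median of −1.87. Of them 3 fell (Tac1, Scn4b and Rarb), against 3.93% of all transcripts tested, of which 54.7% were below 0. The striatal genes had a mean level of 9.70 to 9.86 on the MCT arrays and 7.03 to 9.065 on the PS arrays. Per array, the median deviation of the striatal genes from the MCT mean was −2.56 on PS 1, −2.285 on PS 2 and −0.71 on PS 3. For the 8 members it was −0.815, −0.56 and −0.47, so their PS arrays lay much closer together. PS 3 was the highest PS array for 6 of the 8 members. Genes of cortical projection neurons were above 0 in 5 of 5, with a median of 0.60, and Fezf2 rose, where 1.83% of all transcripts tested rose. The cortical genes had a mean level of 8.07 to 8.58 under MCT and 8.55 to 9.23 under PS.

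Of 5 choroid plexus genes 2 were above the filter, and neither passed. Ttr, transthyretin, was 10.82, 11.54 and 5.98 under MCT and 6.70, 4.34 and 6.60 under PS, so that MCT 3, the lowest control for all 8 members, was among the PS arrays for Ttr. This was so for 4 of the 5 genes, and the exception was Clic6, below the filter, at 5.67, 6.39 and 5.52 against 3.37, 3.22 and 4.28. General markers moved less. Neuronal markers had a mean level of 10.42 to 10.62 under MCT and 10.56 to 10.65 under PS. Of 8 only Gad2, an enzyme of inhibitory neurons, fell (−0.68, limma, adjusted p = 0.0383), where 3.93% of all transcripts tested fell. Astrocyte markers had 9.56 to 9.80 against 9.55 to 9.68, and 0 of 7 passed. Microglial and endothelial markers had 0 of 6 past the threshold each, with medians of 0.045 and 0.31. The part of these regional and cellular differences in the values of the myelin genes was not tested.

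**Figure D4:**
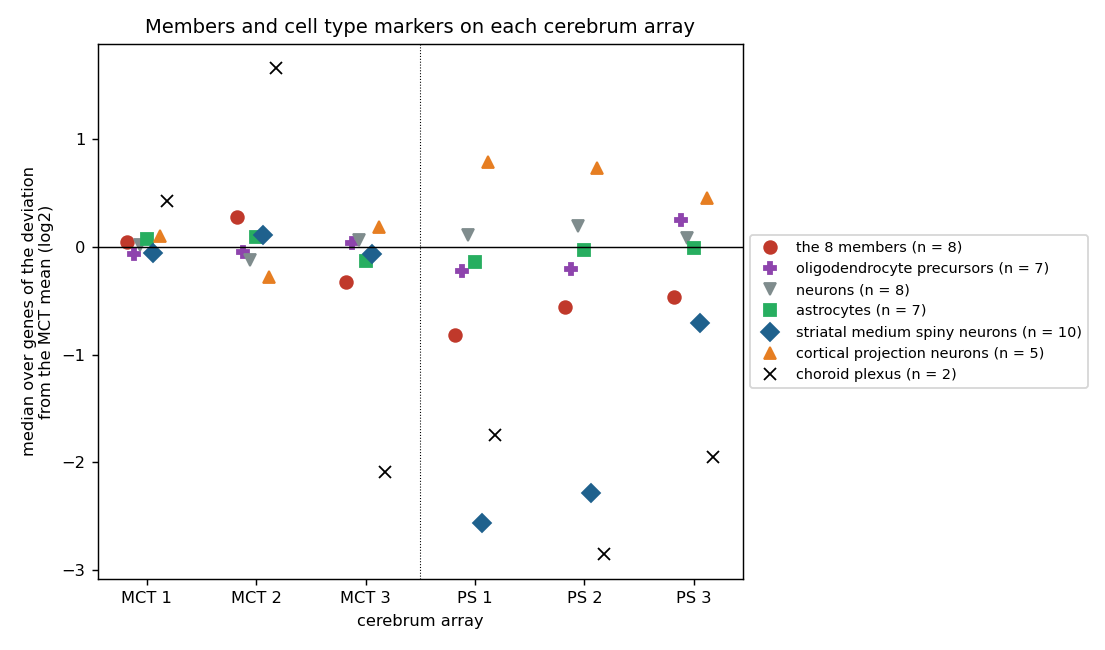
Median deviation from the MCT mean (log2, y axis) over the 8 members and over markers of other cells, on each cerebrum array (x axis; n, genes). The members are lowest on PS 1 (−0.815), while striatal markers fall to −2.56 and −2.285 on PS 1 and PS 2 and the 2 tested choroid plexus genes are low on MCT 3 as well.

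Heart, which has no central myelin, served as the reference tissue. All 8 genes were lower in heart than in cerebrum of MCT mice, by 1.02 to 4.31 on the log2 scale with a median of −3.62, and all passed in limma. Of all transcripts tested, 75.5% passed and 40.3% passed as lower in heart. The structural genes differed most, Mobp by −4.31 ± 0.191 and Mag by −4.20 ± 0.260 (SE). Opalin, Cnp and Mog had −3.85, −3.74 and −3.49 and Aspa −2.48, while Mal had −1.58 ± 0.172 and Qdpr −1.02 ± 0.156. The heart means of Opalin, Aspa, Mag and Mobp lay below 5.23, the filter of this comparison, so the sizes of their differences are approximate. These genes passed the filter only through cerebrum, which fixed the direction of their differences in advance, so their calls add no support.

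Ordered by group mean, 7 of the 8 genes ran from cerebrum MCT through cerebrum PS and heart MCT to heart PS, and Cnp had heart PS above heart MCT. Cerebrum PS and heart MCT did not overlap for 7 genes. For Qdpr they did, with 9.25 to 9.56 on the cerebrum PS arrays and 8.83 to 9.35 on the heart MCT arrays. That neighbouring pair of groups differs in tissue and treatment together and was not tested. How many of all transcripts take this order, or separate in this pair, was not counted. Neither count can therefore be read as particular to these genes. Between the tissues under MCT, a different comparison, 75.5% of all transcripts tested passed in either direction. The last step, heart PS below heart MCT, is unreliable for Opalin, Aspa and Mag, which were below the heart filter of 4.935. For Mobp it was −0.14 (limma, adjusted p = 0.48).

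Within heart, PS and MCT mice did not differ at the threshold for any of the 5 genes tested, and 0.33% of all transcripts tested passed. At an unadjusted p under 0.05 limma gave 3 of the 5 and 3015 transcripts of 12736. Mal was 7.68, 7.18 and 7.10 under MCT and 6.46, 6.47 and 6.79 under PS, lower on every PS array (−0.75 ± 0.182, SE; limma, adjusted p = 0.122). Mog was 5.06, 5.32 and 5.57 against 4.54, 4.55 and 5.01, with groups 0.05 apart (−0.62 ± 0.184; adjusted p = 0.136). Non-overlap with lower PS values was seen for 11.2% of all transcripts tested.

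Cnp went the other way in heart, from 6.47, 6.63 and 6.48 under MCT to 6.89, 6.92 and 7.03 under PS, with no overlap (0.42 ± 0.114, SE; limma, adjusted p = 0.131). Such separation upward occurred for 17.2% of transcripts. Qdpr was 9.35, 9.13 and 8.83 against 8.93, 8.77 and 8.78 (−0.28 ± 0.153; adjusted p = 0.296), and Mobp was 5.06, 5.08 and 5.12 against 5.09, 4.86 and 4.90 (−0.14 ± 0.116; adjusted p = 0.48), and both overlapped. Opalin, Aspa and Mag were below the heart filter of 4.935 and were not tested, with heart means under MCT and PS of 3.71 and 3.42, 4.71 and 4.52, and 4.96 and 4.81. Without heart MCT 3, the control that correlated better with the PS arrays than with its own group, 3 genes passed and 3416 transcripts in all. Without any other heart array 4 to 12 transcripts passed.

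**Figure D5:**
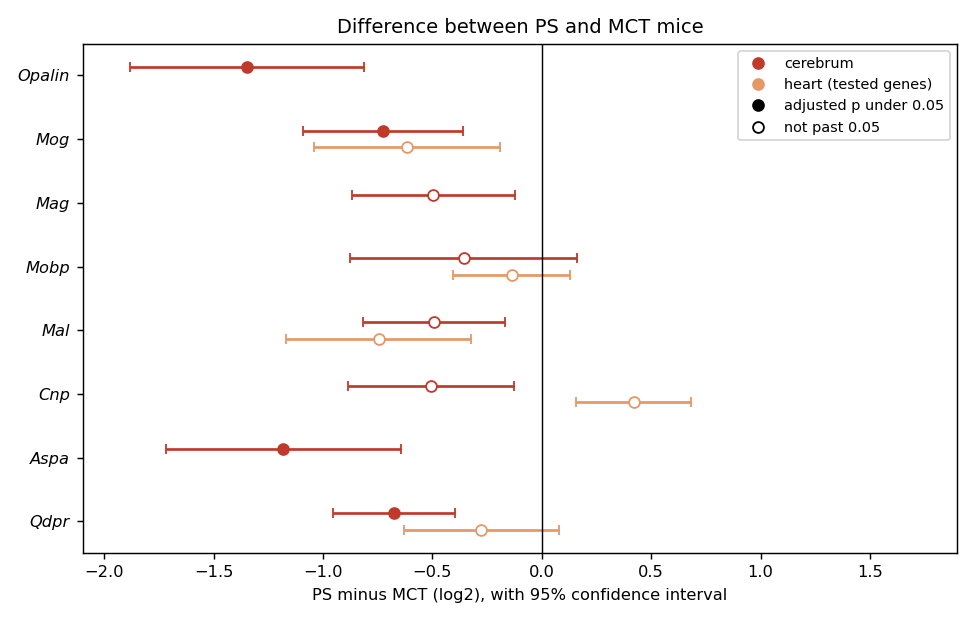
Difference between PS and MCT mice (log2, x axis) in cerebrum and, where tested, in heart, for each gene (y axis). Bars are 95% confidence intervals from limma, and filled points passed an adjusted p of 0.05. Cnp is the gene with points on opposite sides of 0, −0.51 in cerebrum and 0.42 in heart.

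The difference between the tissues in the PS effect was tested over all 12 arrays, and Cnp was the only 1 of the 8 genes to pass. Its effect was 0.93 ± 0.204 higher in heart than in cerebrum (SE; 95% interval 0.48 to 1.37; limma, adjusted p = 0.0465), where 1.52% of all transcripts tested passed and 1.1% passed in this direction. The estimates of the 4 genes that fell in cerebrum were 1.06 for Opalin, 1.00 for Aspa, 0.40 for Qdpr and 0.11 for Mog (adjusted p = 0.123, 0.115, 0.301 and 0.845), so a difference from heart was not shown for them. Mag, Mobp and Mal had 0.35, 0.22 and −0.25 (adjusted p = 0.563, 0.684 and 0.599). Opalin, Aspa and Mag were below the heart filter and entered this test through their cerebrum values. With low heart values that leave little room to fall, their estimates largely restate the cerebrum differences. For Cnp the call was lost without cerebrum MCT 1, MCT 2, PS 1 or PS 2 or heart MCT 1, MCT 2, PS 1, PS 2 or PS 3, with adjusted p from 0.0687 to 0.135, and after quantile normalization (0.79, adjusted p = 0.0762). It was also lost with no filter on low values (adjusted p = 0.0543), with all transcripts tested (0.0623) and with the replicate block, which takes arrays of equal treatment and number as 1 mouse (0.0571, and 22 transcripts in all against 194). Female-pattern arrays were 3 of 3 in heart PS and 2 of 3 in cerebrum PS, and their part in this difference was not tested.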

How the data were processed

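RNA was hybridised to Affymetrix whole-transcript arrays. Per the submitters' processing notes, the authors used Affymetrix Expression Console. Its version, its settings and the build were not given in the sources used here. Values were deposited as 1 per transcript cluster and array, and they were taken as log2 intensity because they reach 13.11, above 11.1, the highest natural log that a 16-bit scanner can give. They were used without further normalization. Of 35556 transcript clusters 21218 had 1 gene symbol, 1881 had several and 12457 had no entry. The annotation is old, and the identifiers of all 8 members were found in the gene table. Tests covered transcripts with 1 symbol whose mean reached the 40th percentile over the arrays in a fit. They were made with lmFit and eBayes of limma 3.58.1 in R 4.3.3, and p-values were adjusted over all of them by Benjamini-Hochberg, at a threshold of 0.05. Summaries used Python 3.11.15 and pandas 2.3.3. The fits were tested on simulated data.

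The genes and lists (163 genes, 147 measured) were chosen with earlier results of these data known. Named were all members, from each other list the genes past the threshold in cerebrum or else the 2 with the lowest p, and the 10 transcripts most like the members' mean profile. Markers were named by their calls or, as Ttr, after their values were seen. Lists and likeness were described without a test. Alternatives covered scaling, filter, transcripts tested, intensity trend, array weights, a fit of all arrays, a block by replicate number and leaving out each array. A threshold of 0.10 and leaving out cerebrum MCT 3 with PS 1 were added after seeing the data. Same-numbered arrays of the 2 tissues deviated together in MCT mice (correlations of 0.102 to 0.287). Yet cerebrum MCT 2 correlated better with heart MCT 1 (0.191) than with heart MCT 2 (0.102). In PS mice the correlations were 0.0543 to 0.115, with 0.0978 for PS 2, whose 2 arrays differed in sex-linked pattern. Whether equal numbers mean the same mouse was therefore not settled. The block changed no call of a member between the tissues under MCT, but ended that of Cnp for the difference in PS effect (limma, adjusted p = 0.0571). P-values measure the spread between these arrays.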

Additional observations from a re-analysis of the deposited data

Results flagged for a closer look

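For 3 genes named in the text the PS effect differed between the tissues, by the test over all 12 arrays in limma. Cnp, the phosphodiesterase of the sheath, had a difference (heart minus cerebrum) of 0.93 ± 0.204 (SE, adjusted p = 0.0465), from −0.51 in cerebrum and 0.42 in heart. Car2, the carbonic anhydrase, had 0.86 ± 0.182 (adjusted p = 0.0429), from −0.63 and 0.23, and in heart it was 5.90, 5.95 and 6.02 under MCT and 6.06, 6.43 and 6.07 under PS. Tspan2, the tetraspanin, had 0.90 ± 0.157 (adjusted p = 0.0212), from −0.59 and 0.31, with 5.81, 5.83 and 5.73 against 6.03, 6.10 and 6.17 in heart. All 3 were lower on every PS array in cerebrum, as were 20.4% of all transcripts tested there. They were higher on every PS array in heart, as were 17.2%, though for Car2 only by 6.06 against 6.02. The 3 genes were picked by a test on these same values, so this separation adds no support. None passed in heart alone. The Tspan2 call was lost without cerebrum MCT 1, MCT 2 or PS 1 or heart PS 2 or PS 3 (adjusted p = 0.0507 to 0.0731), and with the replicate block (0.0532). For Car2 it was lost without cerebrum MCT 1, MCT 2, PS 1 or PS 2 or heart MCT 1, MCT 2, PS 2 or PS 3 (adjusted p = 0.0622 to 0.126), with the replicate block (0.0751) and with all transcripts tested (0.0554). Groups of 3 arrays are too small for a check of single outlying arrays.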

How the results depend on the processing

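The cerebrum differences of all 8 genes stayed below 0 in every setting in which each was tested, from −1.65 to −1.19 for Opalin, −1.48 to −1.03 for Aspa, −0.88 to −0.59 for Mog, −0.77 to −0.58 for Qdpr, −0.59 to −0.36 for Mal, −0.66 to −0.35 for Mag, −0.67 to −0.365 for Cnp and −0.58 to −0.17 for Mobp. For the 7 genes whose cerebrum groups did not overlap, leaving out arrays could not change this sign. In cerebrum 4 of the 8 passed, and 734 transcripts in all. With no filter 2 of the 8 passed, with all transcripts tested 0 (and 218 in all), with array weights 7 (3407 in all), with the replicate block 0 (0 in all), at an adjusted p under 0.10 7 (2148 in all) and without MCT 3 and PS 1 together 0 (0 in all). A fit over all 12 arrays called 371 transcripts and lost Mog (adjusted p = 0.0511). Leaving out 1 array gave 0 to 6 of the 8 and 0 to 1557 transcripts. At an unadjusted p under 0.05 limma gave 3083 transcripts with the block and 3079 without MCT 3 and PS 1. In heart, where 0 of the 5 genes and 42 transcripts passed, the counts were 22 transcripts with all tested, 4 and 6987 with array weights, 2 and 1722 in the fit over all arrays, 88 transcripts with the replicate block, and 0 to 3 and 4 to 3416 without 1 array. Array weights stopped before converging in some fits and gave heart MCT 2 a weight of 38.9. Between the tissues, 6396 transcripts passed with the filter at the 60th percentile against 9610, and 7 or 8 of the 8 genes and 8619 to 10315 transcripts without 1 array, where 7 is every gene then tested. For the difference in PS effect, 1 of the 8 and 194 transcripts passed, and the former became 0 after quantile normalization, with no filter, with all transcripts and with the replicate block (22 transcripts; Cnp adjusted p = 0.0571). With median centring 294 transcripts passed, whose median over all transcripts was 0.12, and 0 to 2 of the 8 and 3 to 1629 transcripts without 1 array. Mog ran from −0.045 to 0.26 without 1 array and changed sign, to −0.018 without heart MCT 1, −0.025 without cerebrum MCT 2 and −0.045 without heart PS 3. The cause of these changes was not tested. Replicate numbers did not pair the treatments in cerebrum, where same-numbered deviations correlated at −0.263 to 0.113. In heart they correlated at 0.0325 to 0.122, and each array correlated best with its own number. Arrays give no depth, and genes near the filter in heart have no reliable size.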

Other observations

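In heart, the lists around the myelin genes had few genes above the filter, and none of those tested passed an adjusted p of 0.05 in limma for PS against MCT. Genes of oligodendrocyte precursors, of which Pdgfra and Cspg4 are also made by stromal and mural cells, were above 0 in 4 of 4 tested, with a median of 0.495 against 0.06 over all transcripts tested. Pdgfra was 7.33, 7.48 and 7.11 under MCT and 7.53, 8.24 and 7.69 under PS, and Cspg4 was 5.54, 6.16 and 6.65 against 6.58, 7.11 and 6.71, so PS 2 was the highest heart array for both. Tetrahydrobiopterin genes were below 0 in 4 of 5, with a median of −0.55. Their median deviation from the MCT mean was 0.42, 0.15 and −0.46 on heart MCT 1 to 3. On heart PS 1 to 3 it was −0.55, −0.35 and −0.47, so control MCT 3 lay among the PS arrays. Pcbd1, which fell in cerebrum, was 6.94, 6.77 and 6.16 against 5.81, 6.27 and 6.13 in heart, where the groups overlapped.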
